A study of Mus musculus with 2 samples.

Results

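Diff.Spg1 is the authors' name for the earliest differentiated spermatogonia in a single-cell RNA-seq study of germ cells sorted from adult mouse testis. The members were all cells that the authors' cell table annotates as Diff.Spg1, 226 of 17253 annotated cells. Of these, 218 came from the library labelled Zfp541-/- (of 8833 annotated cells) and 8 from the wild-type (WT) library (of 8420). They made up all of cluster 21, 1 of 25 clusters, and no cell of that cluster carried another of the 15 stage names. Both libraries came from adult C57BL/6 testis that was enzymatically digested and sorted by flow cytometry for tetraploid germ cells, and they differ in genotype, Zfp541-/- or WT. The sample titles name whole testis, while the source field and the protocol name tetraploid germ cells, and no source used here gives the number of mice behind each library. Each genotype had 1 library, so no value below has a replicate check, and cells are not replicates. The stages were clusters of the same counts that are described here, so every difference between stages is a description of the library labelled Zfp541-/-, with no test.

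Spermatogonia are the mitotic germ cells at the base of the seminiferous tubule. Undifferentiated spermatogonia, which hold the stem cells, respond to glial cell line-derived neurotrophic factor (GDNF) through the receptor pair GFRA1 and RET, and retinoic acid moves them into a series of differentiating divisions marked by the receptor tyrosine kinase KIT. After the last of these divisions the cells enter preleptotene and begin meiosis. A gate for tetraploid cells can take spermatogonia that have replicated their DNA as well as primary spermatocytes.

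The 218 Diff.Spg1 cells of the library labelled Zfp541-/- held 2127112 unique molecular identifiers (UMIs), each standing for 1 captured 3' end of a transcript, and the 8 WT cells held 26375. A median of 9280.5 UMIs and 3475 genes was counted per cell of the Zfp541-/- one, with a range of 2261 to 27327 UMIs, against 2434 UMIs and 1366.5 genes in the WT one. Within the library labelled Zfp541-/-, the median depth was lower in the stages that follow, at 7722 UMIs in the 415 cells of Diff.Spg2, 5210 in the 540 cells of Diff.Spg3, 3572.5 in the 482 preleptotene (pre.L) cells and 2276 in leptotene (L). It was higher in pachytene, at 18665 in mid pachytene (mP) and 23690 in late pachytene (lP). The mitochondrial share of UMIs was 6.07% in the median Diff.Spg1 cell, 5.46% in Diff.Spg2 and 4.98% in Diff.Spg3. It was 5.78% in preleptotene, 6.09% in leptotene and 2.22% in late pachytene. No Diff.Spg1 barcode was shared between the libraries, and 17 barcodes were shared among all annotated cells. In the authors' pseudotime, a score with no stated unit, 175 of the 218 cells and 7 of the 8 WT cells stood at the lowest score, which no cell of another listed stage had.

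Diff.Spg1 cells made up 2.47% of the library labelled Zfp541-/- (95% Clopper-Pearson interval 2.15 to 2.81%) and 0.0950% of the WT library (0.0410 to 0.187%). Of the cells from Diff.Spg1 to zygotene alone, they made up 218 of 3210 (6.79%, 5.95 to 7.72%) in the library labelled Zfp541-/- and 8 of 122 (6.56%, 2.87 to 12.5%) in the WT library. The shares thus lay far apart over all annotated cells and had overlapping intervals over the early stages. The libraries also differed in their make-up by stage. Cells from Diff.Spg1 to zygotene were 3210 of 8833 annotated cells in the library labelled Zfp541-/- and 122 of 8420 in the WT library. Among cells with at most 5% mitochondrial UMIs the share was 0.576% (36 Diff.Spg1 cells) in the library labelled Zfp541-/- and 0.0477% (4 cells) in the WT library. All intervals here and below cover counting error only. The part of the sort, the stage make-up of each library, the depth and the mitochondrial limit in the shares was not tested.

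All 6 genes given as markers of the stage were found in Diff.Spg1, but only Ccnd2 and Sohlh1 had their highest level there, and the other 4 were higher in Diff.Spg2. Summed, the 6 genes reached 2112 counts per 1000000 UMIs (CPM) in Diff.Spg1, 2378 in Diff.Spg2, 1374 in Diff.Spg3 and 36.4 in late pachytene. The 8 WT cells had 1630 CPM (1180 to 2196), from 43 UMIs. The label was therefore kept only as the authors' name for a stage, while the members' own pattern is given gene by gene. The word differentiated in it is not borne out by all genes. Kit was lower in Diff.Spg1 than in Diff.Spg2, and the summed markers of undifferentiated spermatogonia were higher.

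**Figure D1:**
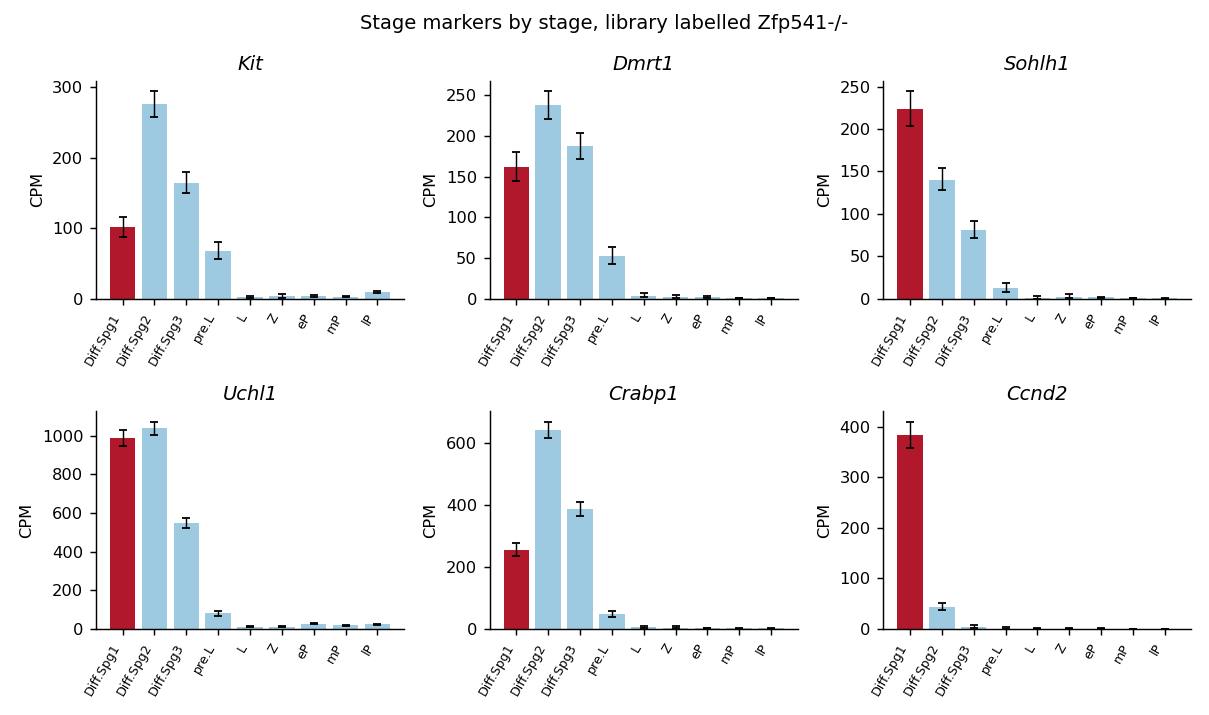
Levels of the 6 stage markers in counts per 1000000 UMIs (CPM, linear axes from 0) over the 9 stages of the library labelled Zfp541-/- with at least 50 cells. Bars are summed UMIs per stage, Diff.Spg1 in red, and error bars are 95% Poisson intervals; Ccnd2 and Sohlh1 are highest in Diff.Spg1, and Kit, Dmrt1, Uchl1 and Crabp1 in Diff.Spg2.

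Kit, the receptor of stem cell factor (chromosome 5, 75574916 to 75656722, GRCm38), had 101 CPM in Diff.Spg1 (88.0 to 116), 276 in Diff.Spg2, 164 in Diff.Spg3 and 67.2 in preleptotene. Its level in Diff.Spg1 was thus under that of both later spermatogonial stages, with a log2 ratio of -1.45 over Diff.Spg2 (-1.67 to -1.23). At least 1 Kit UMI was found in 37.6% of Diff.Spg1 cells, 84.3% of Diff.Spg2 cells and 19.0% of the deeper late pachytene cells, where Kit stood at 9.54 CPM. With each cell thinned to 2000 UMIs those shares were 13.3%, 40.6% and 2.21%. Late pachytene serves here and below as the stage that should lack spermatogonial transcripts. No Kit UMI was found in the 8 WT cells, which allows up to 113.7 CPM (3 counts).

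Crabp1, which binds retinoic acid in the cytoplasm, followed Kit, with 256 CPM in Diff.Spg1, 642 in Diff.Spg2, 388 in Diff.Spg3 and 46.8 in preleptotene. Its log2 ratio over Diff.Spg2 was -1.32 (-1.46 to -1.19). Dmrt1, a transcription factor that holds mouse spermatogonia back from meiosis, had 162, 238, 187 and 52.3 CPM in the same 4 stages, and the ratio was -0.55 (-0.74 to -0.37). Uchl1, a ubiquitin hydrolase of spermatogonia, hardly differed between Diff.Spg1 (987 CPM) and Diff.Spg2 (1039 CPM), with an interval of the log2 ratio from -0.15 to 0.01. Sohlh1, a transcription factor needed for spermatogonial differentiation in mice, ran the other way, with 223 CPM in Diff.Spg1, 140.3 in Diff.Spg2, 81.2 in Diff.Spg3 and 12.7 in preleptotene.

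Ccnd2, which encodes cyclin D2 and lies on the minus strand of chromosome 6 from 127125162 to 127152193 (GRCm38), had the largest ratio over Diff.Spg2 among the 6 markers. Its level was 383 CPM in Diff.Spg1 (357 to 409.9), 43.3 in Diff.Spg2, 4.01 in Diff.Spg3 and under 1 CPM in each later stage. The log2 ratio over Diff.Spg2 was 3.14 (2.89 to 3.41), from 814 and 145 UMIs. A Ccnd2 UMI was found in 79.4% of Diff.Spg1 cells, 17.8% of Diff.Spg2 cells and 0.514% of late pachytene cells. All 6 Ccnd2 UMIs of the WT Diff.Spg1 cells came from 1 cell.

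Genes that mark undifferentiated spermatogonia were also present. Summed over all 15 genes of a list of such markers, Diff.Spg1 had 494 CPM (465 to 525), Diff.Spg2 90.1 CPM and Diff.Spg3 52.1 CPM, while the 8 WT cells had 455 CPM (235 to 795) from 12 UMIs. The sum in late pachytene, 449 CPM, was nearly all Id4 (398 CPM) and Egr4 (48.9 CPM). Single genes were called measured in a comparison where the higher stage had at least 20 CPM. A gene that meets this floor through Diff.Spg1 alone had to differ, so counts and medians over this list and the lists below only describe. Over Diff.Spg2, 529 of 7098 measured genes (7.45%) were at least 2-fold higher in Diff.Spg1 and 314 (4.42%) were at least 2-fold lower. Of the 15 listed genes 5 were measured, and all 5 were at least 2-fold higher.

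Zbtb16, which encodes the stem cell regulator PLZF, had 122 CPM in Diff.Spg1, 39.99 in Diff.Spg2, 23.1 in Diff.Spg3 and 0 in preleptotene, a log2 ratio over Diff.Spg2 of 1.61 (1.31 to 1.92). Ret, the signalling chain of the GDNF receptor, had 76 UMIs (35.7 CPM) in Diff.Spg1 and 0 in Diff.Spg2. Taking 3 counts as what a count of 0 allows, Ret was at least 39.9-fold higher, and 25.2% of Diff.Spg1 cells had a UMI. Its partner Gfra1, the GDNF-binding chain, had 55 UMIs (25.9 CPM) against 3 in Diff.Spg2 (0.895 CPM), with a log2 ratio of 4.64 whose interval ran from 3.23 to 7.17. A Gfra1 UMI was found in 17.0% of Diff.Spg1 cells and in 0.206% of late pachytene cells, so both chains were seen in a minority of the members.

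Egr4, an early growth response transcription factor, had 217 CPM in Diff.Spg1, 31.6 in Diff.Spg2 and 1.65 in preleptotene, and 37.1 and 48.9 in mid and late pachytene. Id4, an inhibitor of helix-loop-helix factors that marks stem cells in mice, had 31.97 CPM in Diff.Spg1 and 12.8 in Diff.Spg2, but 398 in late pachytene, so it does not set Diff.Spg1 apart from the later germ cells. The other 10 listed genes were under the floor. Etv5, a GDNF-responsive transcription factor, had 36 UMIs in Diff.Spg1 and 4 in Diff.Spg2, and the surface protein gene Tspan8 had 35 and 1. Lhx1 had 16 and 2, Bcl6b 11 and 2, Eomes 10 and 3, and Pax7 7 and 1. Nanos2, an RNA-binding protein of self-renewing cells, and Pdx1 each had 6 and 0 UMIs, Shisa6 had 3 and 3, and Ccr1 had none in either stage. Each of these 10 genes was thus seen in at most a minority of the members.

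**Figure D2:**
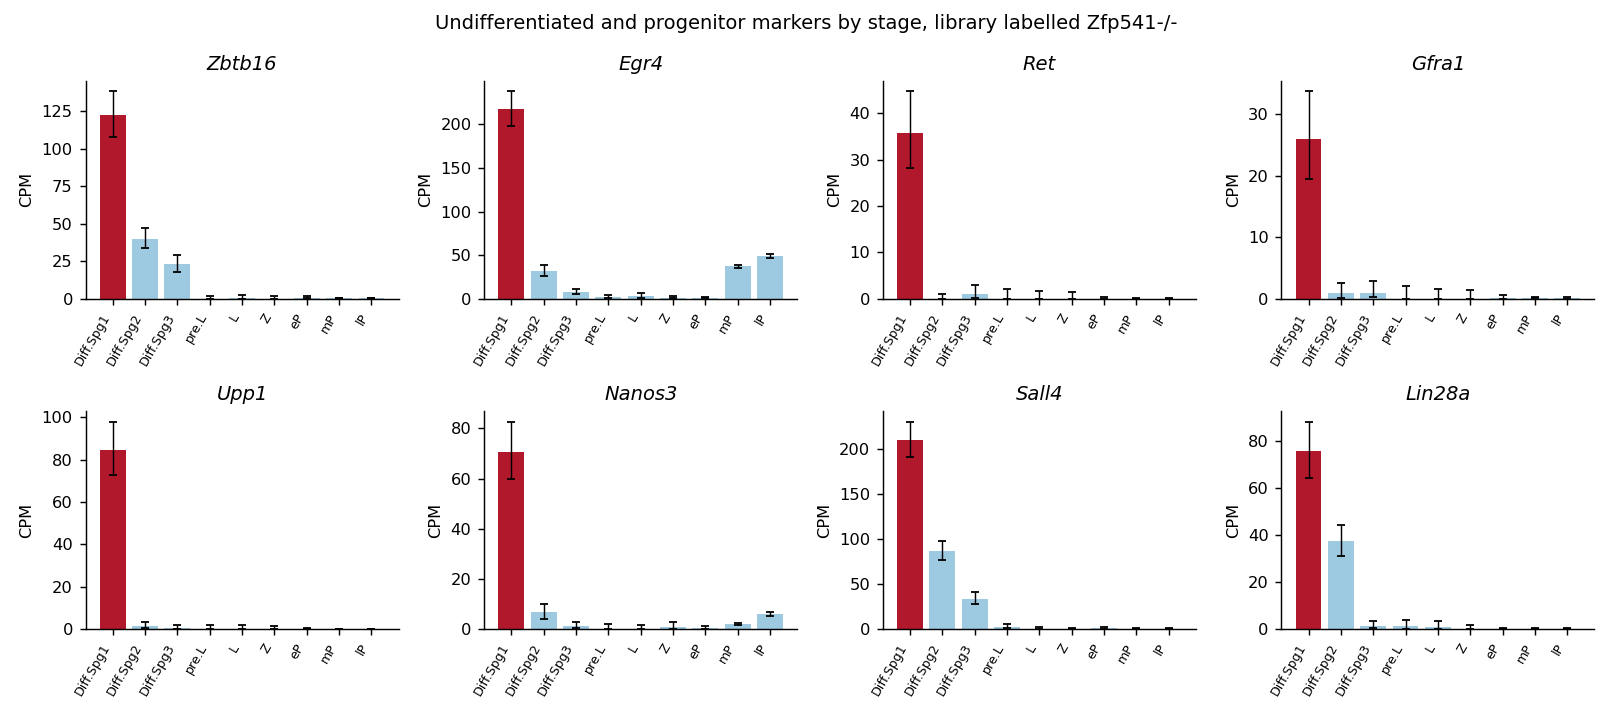
Levels of 8 markers of undifferentiated or progenitor spermatogonia in CPM (linear axes from 0) over the 9 stages of the library labelled Zfp541-/-. Bars are summed UMIs per stage, Diff.Spg1 in red, with 95% Poisson intervals; each of the 8 genes is highest in Diff.Spg1, and Egr4 is also counted in mid and late pachytene.

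Progenitor genes, which are active between the stem cell and the differentiating states, showed the same order. The 14 listed genes summed to 795 CPM in Diff.Spg1 (758 to 834), 335 in Diff.Spg2, 171 in Diff.Spg3 and 61.8 in late pachytene, where 50.6 of the CPM were Itga6, and to 607 CPM (347 to 985) in the 8 WT cells, from 16 UMIs. Over Diff.Spg2, 8 of the 14 were measured, and all 8 had a log2 ratio above 0 (44.4% of all measured genes did). Of the 8, 5 were at least 2-fold higher, beside 7.45% of all measured genes. Upp1, which encodes uridine phosphorylase of the pyrimidine salvage pathway (chromosome 11, 9118103 to 9136170, GRCm38), had the largest ratio over Diff.Spg2 among genes of at least 50 CPM. It had 180 UMIs (84.6 CPM) in Diff.Spg1, 5 in Diff.Spg2 (1.49 CPM) and 1 in the WT cells, and a log2 ratio of 5.69 (4.58 to 7.47). A Upp1 UMI was found in 48.2% of Diff.Spg1 cells, 1.20% of Diff.Spg2 cells and 0 of 1945 late pachytene cells (a limit of 0.154% at 3 counts).

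Nanos3, an RNA-binding protein of progenitors, had 70.5 CPM in Diff.Spg1, 6.57 in Diff.Spg2 and 1.00 in Diff.Spg3, a log2 ratio of 3.40 (2.77 to 4.14) over Diff.Spg2. Sall4, a zinc finger transcription factor of germ and stem cells, had 209.7, 86.6, 33.8 and 2.20 CPM from Diff.Spg1 to preleptotene. Lin28a, an RNA-binding protein that blocks let-7 processing, had 75.7, 37.3, 1.34 and 1.10 CPM in the same stages, so its larger step lay between Diff.Spg2 and Diff.Spg3. Itga6, an integrin chain used to sort spermatogonia, had 42.3 CPM in Diff.Spg1 and 18.2 in Diff.Spg2, though 50.6 in late pachytene. Sox3, on the X chromosome, had 139 and 97.9 CPM, Foxo1 had 104 and 65.96, and the retinoic acid receptor gene Rarg had 22.6 and 14.0, all under 2-fold.

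Under the floor of 20 CPM were Neurog3 (21 UMIs in Diff.Spg1 and 8 in Diff.Spg2), the stress-responsive Ddit4 (29 and 1), Tcl1 (35 and 3), Cdh1 (11 and 6), Nxf3 (4 and 3) and Neurog2 (0 and 4). Neurog3 is the transcription factor by which progenitors are usually recognised in mice, and 7.34% of Diff.Spg1 cells had a UMI of it. Of the 9 progenitor genes with at least 20 CPM in any of the 9 stages, 7 were highest in Diff.Spg1. Over all genes of that level, 1200 of 9092 (13.2%) were highest in Diff.Spg1, 1053 (11.6%) in Diff.Spg2, and 1435 (15.8%) in preleptotene.

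The 25 genes with the largest ratios over Diff.Spg2, all of 50 CPM or more, include genes of the cell surface, of nutrient sensing and of transcription. Sdc4, which encodes the heparan sulfate proteoglycan syndecan-4, lies on the minus strand of chromosome 2 from 164424247 to 164443887 (GRCm38). It had 518 CPM in Diff.Spg1 (488 to 550), 18.5 in Diff.Spg2 and 7.69 in Diff.Spg3, a log2 ratio of 4.80 (4.44 to 5.20) over Diff.Spg2. A Sdc4 UMI was found in 95.0% of Diff.Spg1 cells, 12.0% of Diff.Spg2 cells and 0.411% of late pachytene cells, and in 62.4%, 3.62% and 0.0514% after thinning, so the gene was counted in nearly every member. Of the 8 WT cells, 4 had a Sdc4 UMI.

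Other surface and matrix genes in this group were Lamb1, a laminin chain, with 83.7 CPM in Diff.Spg1 and 2.09 in Diff.Spg2 (log2 ratio 5.23), and Large2, a glycosyltransferase acting on dystroglycan, with 70.5 and 2.98 CPM (4.50). The actin-binding protein gene Tagln2 had 95.4 and 9.55 CPM (3.30), with 43.7 in late pachytene. Rragd and Rhebl1, small GTPases of the amino acid and growth factor inputs to mTORC1, had 103.9 against 8.36 CPM (3.61) and 60.2 against 5.07 CPM (3.53). Of these genes, Tagln2 and Rhebl1 were counted again in late pachytene, and Lamb1, Large2 and Rragd were under 1 CPM there.

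Regulators of transcription and RNA in the group included the zinc finger gene Zfp462, with 101.5 CPM in Diff.Spg1 and 3.28 in Diff.Spg2 (4.89), the splicing regulator Mbnl2, with 81.8 and 5.07 CPM (3.97), and Cebpb, with 71.9 and 10.5 CPM (2.77). Pim1, a serine/threonine kinase gene, had 258 CPM in Diff.Spg1 and 35.5 in Diff.Spg2 (2.86), and 23.3 to 54.8 in the stages after that. Egr1, an immediate early transcription factor, had 100.6 and 6.27 CPM (3.97). Oasl2 and Trim12c, relatives of interferon-inducible genes, had 59.2 against 3.58 CPM (3.99) and 50.3 against 4.18 CPM (3.55). Chd1 and Cgrrf1 did not stay low after Diff.Spg2: Chd1, a chromatin remodeller gene, had 61.6 CPM in Diff.Spg1, 8.66 in Diff.Spg2 and up to 122 in later stages, and Cgrrf1 had 82.3, 12.2 and up to 158.

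Other genes of the 25 were Ddah2, with 67.2 CPM in Diff.Spg1 and 5.07 in Diff.Spg2 (3.69), Cmip, with 63.9 and 8.66 CPM (2.87), and 3 X-linked genes beside Ccnd2, Egr4, Nanos3 and Upp1. Rhox10, a homeobox gene that helps establish spermatogonial stem cells in mice, had 83.7 CPM in Diff.Spg1, 12.8 in Diff.Spg2 and 0 in Diff.Spg3 and preleptotene. Slc25a5, a mitochondrial ADP/ATP carrier gene, had 50.3 and 7.16 CPM in Diff.Spg1 and Diff.Spg2 (2.79). Rps4x, a ribosomal protein gene, had 277 CPM in Diff.Spg1 and 21.8 in Diff.Spg2 (3.66), and a UMI was found in 77.1% and 13.0% of cells. A close autosomal copy of Rps4x exists, so how reads were shared between the copies makes its level uncertain.

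**Figure D3:**
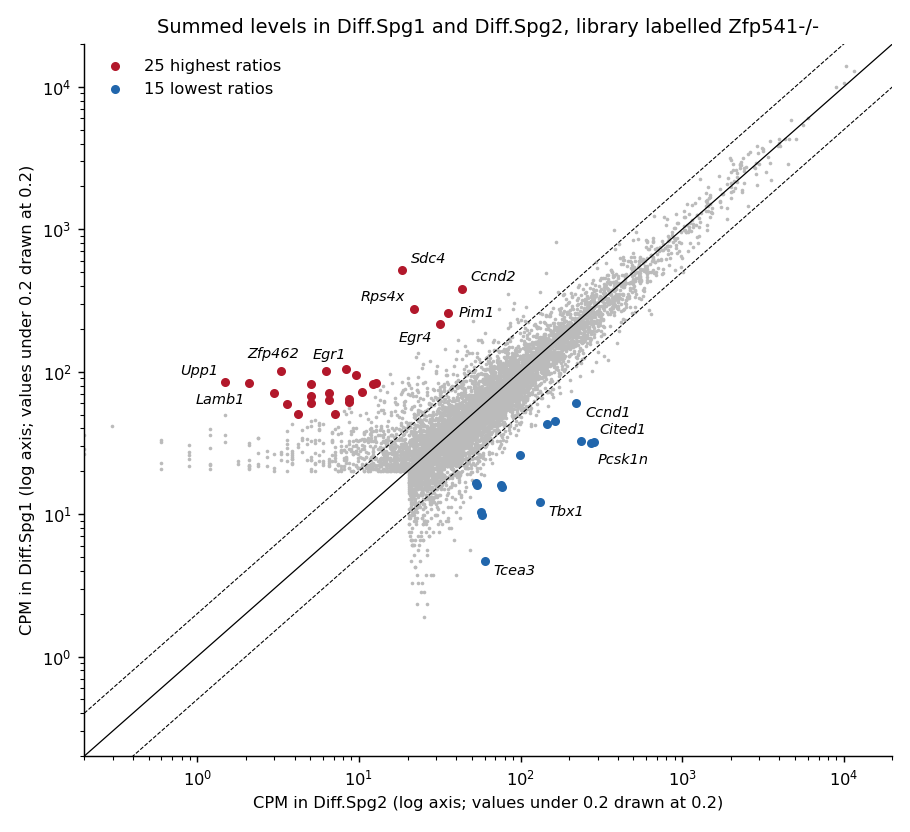
Each point is a gene of at least 20 CPM in the higher stage, with its CPM in Diff.Spg1 (vertical, log axis) and Diff.Spg2 (horizontal, log axis) in the library labelled Zfp541-/-. Solid and dashed lines mark equality and 2-fold; the 25 genes with the largest ratios (red) include Sdc4, Ccnd2 and Upp1, and the 15 with the smallest (blue) include Tcea3, Tbx1 and Ccnd1.

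For the 3 highest-ranked and the lowest-ranked of these genes that have a single start in RefSeq, the promoter is printed below to show what letters stand there, from 250 bases before to 50 after the start (RefSeq, GRCm38.p6). Capitals mark GGGCGG (the GC box), CCAAT and TATAAA on either strand, and TGACGTCA was also searched. The Lamb1 promoter is chr12:31265043-31265342 on the plus strand, Sdc4 chr2:164443139-164443438 on the minus strand, Oasl2 chr5:114896684-114896983 on the plus strand and Tcea3, the gene lowest in Diff.Spg1 against Diff.Spg2, chr4:136247707-136248006 on the plus strand.
Lamb1: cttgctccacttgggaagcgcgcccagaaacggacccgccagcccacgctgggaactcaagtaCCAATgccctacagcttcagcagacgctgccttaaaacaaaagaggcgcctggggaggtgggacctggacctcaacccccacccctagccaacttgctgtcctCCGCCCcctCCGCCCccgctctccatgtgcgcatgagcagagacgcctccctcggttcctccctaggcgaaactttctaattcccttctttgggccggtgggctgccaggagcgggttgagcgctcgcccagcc
Sdc4: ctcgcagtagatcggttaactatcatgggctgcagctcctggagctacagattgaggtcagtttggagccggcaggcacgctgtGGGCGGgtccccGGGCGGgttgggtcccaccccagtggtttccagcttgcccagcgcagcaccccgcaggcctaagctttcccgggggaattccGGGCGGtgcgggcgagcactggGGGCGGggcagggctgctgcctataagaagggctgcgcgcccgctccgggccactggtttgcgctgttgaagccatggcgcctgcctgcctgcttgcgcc
Oasl2: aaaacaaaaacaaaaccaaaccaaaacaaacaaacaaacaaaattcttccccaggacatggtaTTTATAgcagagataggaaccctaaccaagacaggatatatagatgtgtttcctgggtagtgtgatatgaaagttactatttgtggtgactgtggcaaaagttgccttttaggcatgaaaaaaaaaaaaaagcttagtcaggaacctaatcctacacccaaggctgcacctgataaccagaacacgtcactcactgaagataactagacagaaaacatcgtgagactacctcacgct
Tcea3: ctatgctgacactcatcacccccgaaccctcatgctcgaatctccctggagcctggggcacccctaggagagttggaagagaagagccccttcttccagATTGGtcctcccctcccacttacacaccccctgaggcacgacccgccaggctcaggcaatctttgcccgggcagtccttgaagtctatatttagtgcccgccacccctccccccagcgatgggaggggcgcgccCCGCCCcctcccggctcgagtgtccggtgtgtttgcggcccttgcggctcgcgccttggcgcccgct

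The Sdc4 promoter held 4 GC boxes in 300 bases at 67.7% G and C, and the Lamb1 promoter 2 GC boxes and 1 CCAAT at 63.7%. Oasl2 differed in base composition, with 38.7% G and C, 1 TATAAA and no GC box, while Tcea3 held 1 GC box and 1 CCAAT at 65.3%. Of the 25 genes higher in Diff.Spg1, 18 had promoters in the table, 22 in all, and 15 of these (68.2%) held a GC box. Of the 15 lower genes 12 matched, and 12 of their 19 promoters (63.2%) held it, against 35.7% of all 32851 promoters outside chromosome 18. CCAAT stood in 22.7% of the promoters of the higher genes, 47.4% of those of the lower genes and 37.4% of all, and TATAAA in 9.09%, 15.8% and 13.6%. CANNTG, the E-box class read by basic helix-loop-helix factors such as SOHLH1, stood in 63.6%, 68.4% and 72.3%, and may overlap the other motifs. A match is a description of letters, and promoters of active genes were not set apart from the rest in these shares.

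Most of the 15 genes with the smallest ratios over Diff.Spg2 had their highest level in Diff.Spg2 or Diff.Spg3. Over all genes of at least 20 CPM in a stage, 11.6% were highest in Diff.Spg2 and 10.4% in Diff.Spg3. The 15 were picked as low against Diff.Spg2 in these same sums, so a high level there follows from the ranking. Tbx1, a T-box transcription factor, had 12.2 CPM in Diff.Spg1, 131.6 in Diff.Spg2, 93.2 in Diff.Spg3 and 25.3 in preleptotene, a log2 ratio over Diff.Spg2 of -3.40 (-4.06 to -2.86). Tcea3, a transcription elongation factor, had 4.70, 59.99 and 26.7 CPM in the 3 spermatogonial stages. Cited1, an X-linked transcriptional coregulator, had 31.5, 272, 244 and 489.9 CPM from Diff.Spg1 to preleptotene, so its highest level lay in preleptotene, where that of Tbx1 lay in Diff.Spg2. Pcsk1n, also X-linked and encoding the prohormone convertase inhibitor proSAAS, had 31.97 and 287 CPM in Diff.Spg1 and Diff.Spg2 (-3.16), and Cd63, a tetraspanin of endosomes, 32.4 and 237 CPM (-2.86).

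Dmrtb1, a relative of Dmrt1 that coordinates the end of spermatogonial divisions in mice, had 9.87 CPM in Diff.Spg1, 57.9 in Diff.Spg2, 96.2 in Diff.Spg3 and 440.2 in late pachytene. Runx3, a transcription factor, had 10.3, 56.7 and 73.9 CPM in the 3 spermatogonial stages, and Hmg20b, a chromatin protein, 15.5, 76.7 and 102.6. The microtubule plus-end gene Clip1 had 45.1 and 163 CPM in Diff.Spg1 and Diff.Spg2 (-1.84), and Nrarp, a regulator of Notch signalling, 15.98 and 53.7 (-1.73). Selenom, a selenoprotein of the endoplasmic reticulum, had 43.3, 146 and 332 CPM from Diff.Spg1 to Diff.Spg3. Crybg3 had 25.9 and 98.8 CPM in Diff.Spg1 and Diff.Spg2 (-1.92), and Oraov1 had 16.5 and 53.1 (-1.67). The ratio of Oraov1 was under 2-fold after thinning (-0.89).

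The D cyclins, which drive entry into S phase with CDK4 or CDK6, differed in opposite directions between Diff.Spg1 and Diff.Spg2. Ccnd1, cyclin D1, had 60.6 CPM in Diff.Spg1, 221 in Diff.Spg2, 298 in Diff.Spg3 and 53.95 in preleptotene, with a log2 ratio of -1.86 (-2.15 to -1.60) over Diff.Spg2, where that of Ccnd2 was 3.14. Ccnd3, cyclin D3, had 86.97, 48.9 and 17.0 CPM in the 3 spermatogonial stages. Cdk4 had 222 CPM in Diff.Spg1, 96.7 in Diff.Spg2 and 55.8 in Diff.Spg3. Cdkn1b, the inhibitor p27, had 56 UMIs (26.3 CPM) in Diff.Spg1 and 0 in both Diff.Spg2 and Diff.Spg3, at least 29.4-fold and 26.3-fold higher, and 19.3% of Diff.Spg1 cells had a UMI. Both an activating cyclin and an inhibitor of this step were thus at their highest in Diff.Spg1.

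The E cyclins Ccne1 and Ccne2 ran the opposite way, with 11.3 and 30.4 CPM for Ccne1 and 29.6 and 60.3 CPM for Ccne2 in Diff.Spg1 and Diff.Spg2, and Ccne2 reached 317 CPM in preleptotene. Of 20 listed cyclins and G1 to S control genes, 16 were measured against Diff.Spg2, with 3 at least 2-fold higher and 3 lower. Their median log2 ratio was 0.02, beside -0.07 over all measured genes. Over all measured genes 7.45% were at least 2-fold higher, 4.42% lower and 44.4% above 0. Genes of DNA replication had a median of -0.10 (25 of 25 measured, 10 above 0), and only X-linked Pola1, the catalytic chain of DNA polymerase alpha, passed 2-fold, with 37.6 CPM in Diff.Spg1 and 10.7 in Diff.Spg2. Genes of mitotic G2 to M had a median of -0.13 (25 of 25 measured, 9 above 0), or 0.05 in cells of at most 5% mitochondrial UMIs, and none passed 2-fold in either direction. Mki67, for example, had 239 CPM in Diff.Spg1, 244 in Diff.Spg2 and 324 in Diff.Spg3, and Ccnb1 had 276, 364 and 271.

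Against preleptotene, genes of mitosis were mostly higher in Diff.Spg1 and genes of replication were not. There 1784 of 7463 measured genes (23.9%) were at least 2-fold higher in Diff.Spg1 and 1759 (23.6%) at least 2-fold lower. Which direction held more turned with a floor of 50 CPM (960 higher and 1306 lower), 5 counts added (1682 and 1700) and a limit of 5% mitochondrial UMIs (1673 and 1759). The G2 to M list had a median log2 ratio of 1.60, with 13 of 25 genes at least 2-fold higher and 3 lower, beside a median of -0.08 over all measured genes. Ccnb1 had 276 CPM in Diff.Spg1 and 12.7 CPM in preleptotene, and Plk1, a mitotic kinase gene, 47.95 CPM in Diff.Spg1 and 0 UMIs in preleptotene. Replication genes had a median of -0.24 in that comparison, with 5 higher and 4 lower. All cells were sorted as tetraploid, and the part of that sort in the levels of cell cycle genes here and above was not tested.

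Measured meiotic genes, like most measured genes, were within 2-fold of their level in Diff.Spg2, and they were far under that in preleptotene. Of the 24 listed genes of meiotic entry and the chromosome axis, none of the 15 measured against Diff.Spg2 passed 2-fold. Their median was -0.24, beside -0.07 over all measured genes, of which 7.45% were 2-fold higher and 4.42% lower. Against preleptotene all 24 were at least 2-fold lower, beside 23.6% of all measured genes. The median there was -2.55, beside -0.08 over all measured genes. Sycp3, of the synaptonemal complex axis, had 311 CPM in Diff.Spg1, 399 in Diff.Spg2, 449 in Diff.Spg3 and 2513 in preleptotene. Prdm9, which sets recombination sites, had 8 UMIs in Diff.Spg1 (3.76 CPM), against 198 CPM in preleptotene. Stra8, induced by retinoic acid before both differentiation and meiosis, was high in separate stages, with 550.5 CPM in Diff.Spg1, 593 in Diff.Spg2, 251 in Diff.Spg3 and 1184 in preleptotene.

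Few genes of retinoid metabolism and its receptors reached the floor. Cyp26a1, which degrades retinoic acid, had 35 UMIs in Diff.Spg1, 5 in Diff.Spg2 and 0 in Diff.Spg3, under the floor. Of 21 listed genes 6 were measured against Diff.Spg2. None was 2-fold higher, and Crabp1 and the receptor gene Rxrb (14.1 and 35.8 CPM) were 2-fold lower. Over all measured genes 7.45% were 2-fold higher, 4.42% lower and 44.4% above 0, so no count over 6 genes is read. DNA methylation genes had a median of -0.34 (8 of 13 measured, 1 above 0); the de novo enzyme Dnmt3b had 89.3 CPM in Diff.Spg1 and 154 in Diff.Spg2, and the maintenance enzyme Dnmt1 had 313 and 349.5.

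Among genes downstream of KIT and RAS, Mapk3, which encodes the kinase ERK1, had 73.8 CPM in Diff.Spg1 and 23.0 in Diff.Spg2, and the phosphoinositide kinase chains Pik3ca and Pik3r1 had 33.4 against 10.2 CPM and 22.1 against 6.57 CPM. These 3 were the only 2-fold higher genes of 20 measured of 25 listed, Kit was the only 2-fold lower gene, and the median was -0.16, beside 7.45% higher, 4.42% lower and a median of -0.07 over all measured genes. Feedback targets of the pathway were under the floor. Dusp6, a phosphatase of ERK, had 32 UMIs in Diff.Spg1 and 0 in Diff.Spg2, at least 16.8-fold higher, and Etv4, a transcription factor, had 37 and 5 UMIs. Of 12 genes of somatic glycolysis measured of 18 listed, 3 were 2-fold higher and 1 lower, beside the same 7.45% and 4.42%, with a median of 0.23. Eno1 had 140.6 CPM in Diff.Spg1 and 46.6 in Diff.Spg2, and Pkm 166 and 57.3. X-linked Pdha1, a listed gene of pyruvate dehydrogenase rather than of glycolysis itself, had 24.9 and 8.06. Hk2, the first enzyme of glycolysis, had 24.9 and 58.8.

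Small RNA pathway genes differed gene by gene. Piwil4, a nuclear PIWI protein best known from fetal male germ cells of mice, had 58 UMIs (27.3 CPM) in Diff.Spg1 and 11 in Diff.Spg2 (3.28 CPM), with a log2 ratio of 3.00 (2.11 to 4.13). Gtsf1, a PIWI partner, had 234 and 94.6 CPM in Diff.Spg1 and Diff.Spg2, and 485 in mid pachytene. With Nanos3 these were the 3 genes of 20 measured that were 2-fold higher, beside 7.45% of all measured genes, the median was 0.20, and none was 2-fold lower. On the cell surface, 11 of 20 listed genes were measured. Cd9 (132 and 63.9 CPM in Diff.Spg1 and Diff.Spg2), Cd24a (23.5 and 6.87) and Itga6 were 2-fold higher. Cd63 and Cdh2 (8.93 and 25.7) were 2-fold lower, beside 7.45% higher and 4.42% lower over all measured genes. Cytosolic ribosomal proteins had a median of 0.15 (84 of 85 measured, 58 above 0), beside -0.07 and 44.4% above 0 over all measured genes. Their median was -0.0049 in cells of at most 5% mitochondrial UMIs. The median share of ribosomal UMIs per cell in the authors' table was 18.9% in Diff.Spg1 and 17.5% in Diff.Spg2. Regulators of spermatogonial differentiation had a median of 0.00 (17 of 20 measured, 4 higher and 2 lower, beside the same 7.45% and 4.42%). The median was -0.09 for RNA-binding proteins, -0.31 for histones, -0.13 for p53 targets and -0.13 for testis isoforms of energy metabolism. Over the mean of the other 8 stages, the differentiation regulators had a median of 1.67 and the testis energy isoforms -3.10.

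Immediate early and heat shock genes were listed because digestion of tissue can induce them. Fos had 126.5 CPM in Diff.Spg1 and 22.7 in Diff.Spg2, Dusp1 44.2 and 11.9, Jun 26.3 and 9.25, and Fosb 22.6 and 9.25. With Egr1 and Hspa1a (42.3 and 5.67 CPM, a gene with a near-identical copy in Hspa1b), 6 of 15 measured were 2-fold higher. None was 2-fold lower, beside 7.45% higher and 4.42% lower over all measured genes, and the median was 0.53. Of the 6, only Fos also reached the floor of 20 CPM in Diff.Spg2. The others met it through Diff.Spg1 alone, so the count and the median only describe. An Egr1 UMI was found in 46.8% of Diff.Spg1 cells, 4.82% of Diff.Spg2 cells and 2.67% of late pachytene cells. Cells of both stages were digested and sorted together, and the part of the digestion in these levels was not tested.

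**Figure D4:**
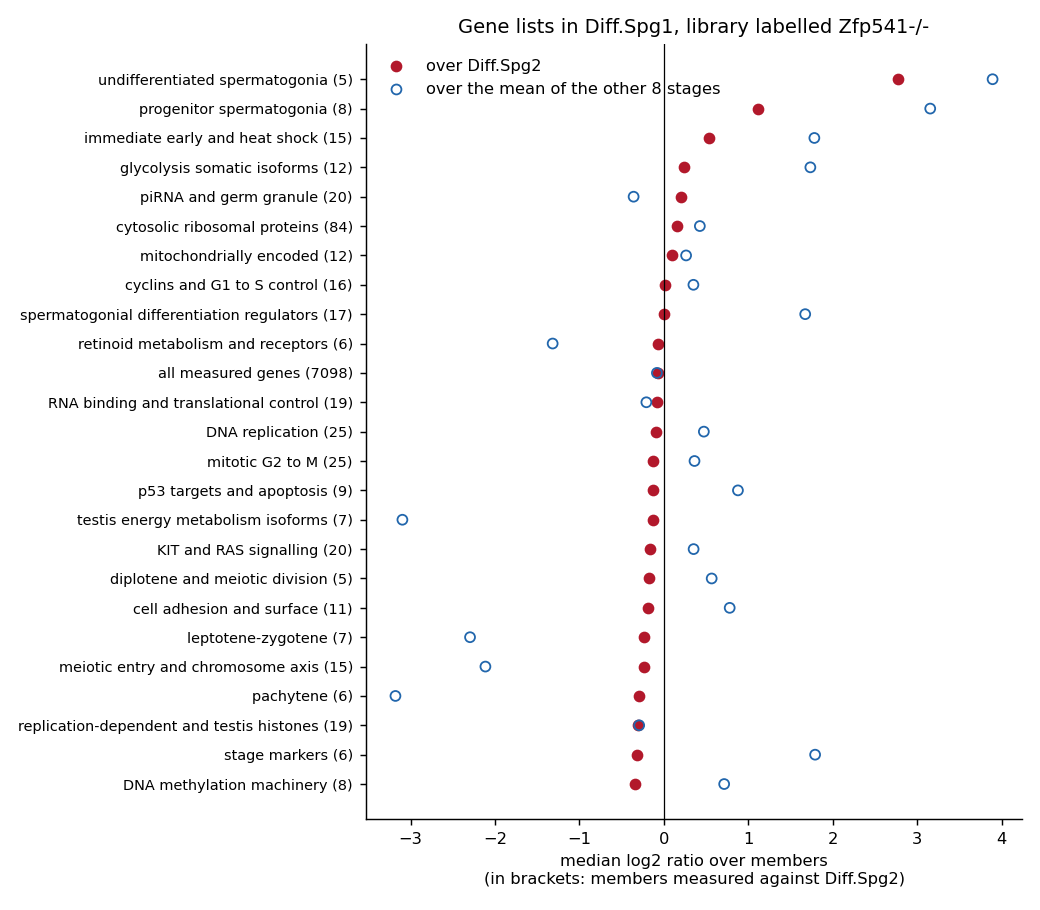
Median log2 ratio of Diff.Spg1 over Diff.Spg2 (filled) and over the equal-weight mean of the other 8 stages (open) for each gene list, over its measured members, in the library labelled Zfp541-/-. Undifferentiated and progenitor spermatogonial genes lie at 2.77 (5 genes) and 1.12 (8 genes) over Diff.Spg2. Immediate early and heat shock genes lie at 0.53 (15 genes), and all measured genes at -0.07. Members that met the floor of 20 CPM through Diff.Spg1 alone had to differ, so these medians only describe.

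Over the mean of the other 8 stages with at least 50 cells, each stage weighted equally, 1241 of 7643 measured genes (16.2%) were at least 2-fold higher in Diff.Spg1 and 1601 (20.9%) at least 2-fold lower, while a floor of 5 CPM gave 2451 higher and 2303 lower. The 20 genes with the largest ratios were led by Upp1, with a log2 ratio of 7.84, followed by Zfp462 (6.96), Large2 (6.74) and Lamb1 (6.73). They shared 14 genes with the 25 above, which is 70.0% of the 20 and 56.0% of the 25. The other 6 had smaller ratios over Diff.Spg2 than the 25. Tubb5, a beta tubulin gene with close relatives, had 809 CPM in Diff.Spg1, 165 in Diff.Spg2 and 23.4 in Diff.Spg3. Afp, the alpha-fetoprotein gene, had 119, 27.5 and 4.68 CPM, Irf1, an interferon regulatory factor, 82.7, 20.0 and 3.01, and Cartpt, which encodes a neuropeptide precursor, 51.2, 11.0 and 0.334. F11r, which encodes a junctional adhesion molecule, had 52.7, 8.06 and 1.67 CPM, and Asphd2 had 55.9, 8.66 and 0.668.

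The 10 lowest ratios over that mean ran from -4.99 to -4.07, and each gene was highest in preleptotene or in a stage of meiotic prophase. They were picked as low against that mean, so a high level in another stage follows from the ranking. Prss50, a testis protease gene, had 18.8 CPM in Diff.Spg1 and 1249 in preleptotene, Rad51ap2 had 5.64 CPM and 277 in zygotene, and Ly6k had 59.7 CPM and 2501 in early pachytene. Elfn2 (3.76 CPM in Diff.Spg1), Morc2b (3.76) and Ptchd3 (2.82) were also highest in early or mid pachytene, at 374, 188 and 218 CPM. Tmbim7, Stk33, Pgam2 and March11 had 13.6, 7.52, 3.76 and 5.64 CPM in Diff.Spg1 and were highest in late pachytene, at 984, 382, 291 and 433 CPM. The 11 pachytene markers summed to 675 CPM in Diff.Spg1, 807 in Diff.Spg2, 873 in Diff.Spg3 and 18385 in late pachytene, and the part of pachytene transcripts in single genes was not tested.

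Against Diff.Spg3, 809 of 7336 measured genes (11.0%) were at least 2-fold higher in Diff.Spg1 and 852 (11.6%) at least 2-fold lower. The median over these genes was -0.13, and with scaling by the median of ratios the counts were 960 and 628, so which direction held more genes depended on the scaling. It also turned with a floor of 5 CPM (1871 higher and 1390 lower), 5 counts added (790 and 711), a limit of 5% mitochondrial UMIs (979 and 805) and the deepest cells left out (864 and 832), so no order of the directions is read. Genes of the X chromosome were spread to both sides against Diff.Spg2, where 25 of 216 (11.6%) were at least 2-fold higher and 22 (10.2%) lower, beside 7.34% and 4.26% of 6862 autosomal genes. X-linked transcripts made up 1.78% of UMIs in Diff.Spg1, 1.77% in Diff.Spg2, 1.96% in Diff.Spg3, 2.53% in preleptotene and 0.0368% in late pachytene, where the sex chromosomes are silenced. Over the mean of the other stages, which contains those silenced stages, 81 of 207 X-linked genes (39.1%) were at least 2-fold higher and 25 (12.1%) lower, beside 15.6% and 21.2% of autosomal genes.

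The genes with the most UMIs in Diff.Spg1, leaving out ribosomal and mitochondrial ones, were Eef1a1, a translation elongation factor gene (3051 CPM in Diff.Spg1 and 2007 in Diff.Spg2), Hsp90ab1 (2904 and 3512), Ptma (2872 and 4502), Ppia (2597 and 2145) and Npm1 (2536 and 2007). The nuclear RNA Malat1 had 2247 and 1289 CPM, with a log2 ratio of 0.80, and the antioxidant gene Prdx1 2349 and 1694. Chromatin genes were lower, with 2212 and 3557 CPM for the histone gene H3f3b and 1891 and 2337 for Hmgb2. None of the 15 most counted genes differed 2-fold between Diff.Spg1 and Diff.Spg2. Over all measured genes only 7.45% were at least 2-fold higher and 4.42% lower, so a count of none among 15 is not read.

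The members differed among themselves, and cells with a higher sum over the undifferentiated list tended to have a lower sum over the preleptotene list. Egr4 gave the most UMIs of the undifferentiated list, and the part of single genes in these sums was not tested. Within the 218 cells of the library labelled Zfp541-/-, the undifferentiated list was counted in 206 cells (94.5%), with a median of 447 CPM per cell and quartiles of 250.1 and 749. The preleptotene list, in which Stra8 gave most UMIs, was counted in 189 cells (86.7%), with a median of 409 CPM and quartiles of 158 and 1099. Across cells, Spearman's rho between the 2 lists was -0.61, that between the 6 stage markers and the preleptotene list was 0.57, and that between the undifferentiated list and the stage markers was -0.35 (218 cells each). These cells share a library and a denominator, and rho with the UMIs per cell was -0.22 for the undifferentiated list, 0.31 for the preleptotene list and 0.34 for the stage markers. The progenitor list was counted in all 218 cells, with a median of 729 CPM, and its rho was 0.17 with the undifferentiated list, -0.05 with the preleptotene list and 0.09 with the stage markers.

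A split of the members by Kit showed the same order for Stra8, Gfra1 and Ret. Stra8 was found in 92.7% of the 82 cells with a Kit UMI and in 47.8% of the 136 cells without. Gfra1 was found in 6.10% of cells with a Kit UMI and 23.5% of those without, Ret in 15.9% and 30.9%, and Egr1 in 30.5% and 56.6%. Cells with a Kit UMI were deeper, with a median of 10850 UMIs against 8407.5, and the part of depth in these shares was not tested. The second gene was also counted with every cell thinned to 2000 UMIs, while the split by Kit was kept from full depth. Depth is thus not fully matched. The shares in cells with and without a Kit UMI were then 76.8% and 22.1% for Stra8 and 0% and 9.56% for Gfra1. They were 4.88% and 11.0% for Ret, and 6.10% and 25% for Egr1. Sall4 was found in 91.5% and 75.7% of cells with and without a Kit UMI (51.2% and 34.6% thinned), and Ccnd2 in 91.5% and 72.1% (65.9% and 33.1% thinned). Upp1 (54.9% and 44.1%, thinned 11.0% and 16.2%), Zbtb16 (69.5% and 63.2%, thinned 18.3% and 19.9%) and Lin28a (51.2% and 44.9%, thinned 7.32% and 16.9%) changed order on thinning, so no order is read for them.

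**Figure D5:**
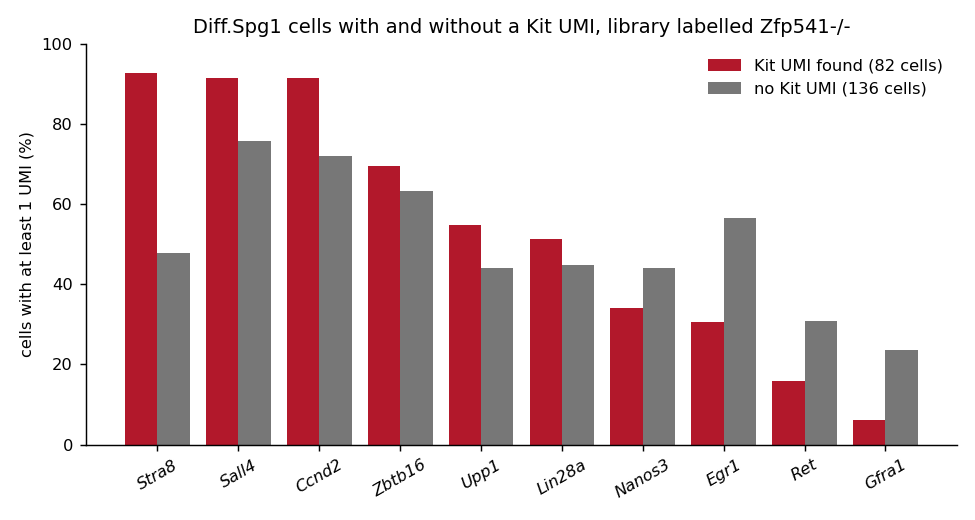
Share of Diff.Spg1 cells of the library labelled Zfp541-/- with at least 1 UMI of each gene (percent, axis from 0), for the 82 cells with a Kit UMI (red) and the 136 without (grey). The shares of Stra8, Sall4 and Ccnd2 were higher in cells with a Kit UMI (92.7% against 47.8% for Stra8), and those of Egr1, Ret, Gfra1 and Nanos3 lower; depth was not matched, and the cells with a Kit UMI had the higher median depth.

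Markers of other testis cells were at low levels. In Diff.Spg1 the lists of Leydig, peritubular myoid, macrophage and lymphoid, and red cell markers summed to 6.58, 3.76, 1.88 and 0.940 CPM, with 5 of 7, 3 of 6, 6 of 9 and 4 of 5 genes at 0, and in Diff.Spg2 to 16.1, 3.88, 4.78 and 1.49 CPM. Endothelial markers, none of 6 at 0, summed to 14.1 CPM in Diff.Spg1 and 9.25 in Diff.Spg2. The Sertoli list, with 2 of 10 genes at 0, summed to 233 and 119 CPM, nearly all from Ctsl (204 and 106.5 CPM), which was also high in zygotene (514 CPM), while Wt1 had 19 UMIs in Diff.Spg1 and 6 in Diff.Spg2. Elongating spermatid markers summed to 15.5 CPM in Diff.Spg1 (33 UMIs, 29 of them Tnp1, with 5 of 9 genes at 0), 4.18 in Diff.Spg2 and 0.334 in Diff.Spg3, and to 379 CPM (182 to 697) in the 8 WT cells, from 10 UMIs. Tnp1 was at 0 in every stage after Diff.Spg3 in the library labelled Zfp541-/-, and the part of spermatid RNA in these cells was not tested.

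Zfp541 itself, a zinc finger gene of spermatocytes, had 19 UMIs in the Diff.Spg1 cells of the library labelled Zfp541-/- (8.93 CPM), with a UMI in 7.80% of cells, 8.92% of Diff.Spg2 cells and 78.0% of late pachytene cells, and 0 UMIs in the 8 WT cells. The deleted part of Zfp541 is not given in these labels, and UMIs from the 3' end of a transcript can persist in a knockout, so the counts are no check of the genotype. WT cells with at least 1 UMI were 4 of 8 for Sall4 and Egr4, 3 for Nanos3, 2 for Gfra1, Zbtb16 and Stra8, and 1 for Upp1 and Ccnd2. With 8 WT cells and 26375 UMIs, single genes were not compared between the genotypes.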

How the data were processed

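Sorted adult testis germ cells were profiled with a 10x 3' kit, 1 library per genotype. The submitters' processing notes name mm10 as genome build, Cell Ranger 3.1.0 and Seurat 3.2.0. The deposited matrices hold whole-number UMI counts of 31053 genes with no normalization, per the file headers and values. The authors' cell table gives UMI and gene counts per cell, the percent of mitochondrial and ribosomal UMIs, a pseudotime score, the library, cluster and stage. Its UMI totals equalled the matrix sums for all 17253 cells. The depth was 119675250 UMIs in the library labelled Zfp541-/- and 108612781 in the WT library.

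UMIs were summed per gene and stage in the library labelled Zfp541-/- and scaled to 1000000 (CPM). Log2 ratios had 0.5 counts added to each sum; genes needed at least 20 CPM in the higher stage, and 2-fold was the threshold. No test was made, since each genotype had 1 library. Intervals are 95%: exact Poisson for levels, Clopper-Pearson for shares, conditional binomial for ratios. Shares of cells were also computed after thinning each cell to 2000 UMIs, which left out no Diff.Spg1 or late pachytene cell and 1 Diff.Spg2 cell. No doublet caller was run; an alternative left out the 10% deepest cells of each stage. Chromosomes came from GENCODE for 31011 genes. The ratio code was run on simulated Poisson counts that held no variation between cells or libraries. That run checks only the code. Python 3.11.15, numpy 2.4.6, scipy 1.17.1, pandas 2.3.3 and matplotlib 3.10.9 were used.

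The members and lists were chosen with earlier results of these data known. Named genes were the 6 markers; the 25 highest and 15 lowest ratios over Diff.Spg2 and the 20 highest and 10 lowest over the mean of the other 8 stages, at 50 CPM or more in the higher stage; the 15 with the most UMIs; and up to 6 members of each list. Other members, and genes under the floor, were chosen after their values were seen. Alternatives changed scaling, floor, added counts, cell weights, depth, mitochondrial limit, deepest cells and libraries, and, chosen after seeing the data, left out X-linked genes. A few genes that the rule names are not reported here.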

Additional observations from a re-analysis of the deposited data

Results flagged for a closer look

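Barcodes that the authors' table does not annotate held the stage markers. Summed over the 2747 such barcodes of the library labelled Zfp541-/-, the 6 markers Kit, Dmrt1, Sohlh1, Uchl1, Crabp1 and Ccnd2 reached 489 CPM (476 to 503, 5195 of 10620266 UMIs), against 26.3 CPM (24.2 to 28.5, 602 of 22882657 UMIs) in the 4219 such barcodes of the WT library. This signal lies in data that no comparison above used, and neither which cells these barcodes held nor why they have no stage name was tested.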

How the results depend on the processing

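Each comparison was recomputed under 9 alternatives, and counts moved most with the floor. With a floor of 5 CPM, 1350 genes were at least 2-fold higher and 763 lower over Diff.Spg2, 1871 and 1390 over Diff.Spg3, 3332 and 2238 over preleptotene, and 2451 and 2303 over the mean of the other stages. With a floor of 50 CPM the counts were 210 and 121, 365 and 442, 960 and 1306, and 626 and 1000. Which direction held more genes turned under at least 1 alternative for each comparison but that over Diff.Spg2. Thinning to 2000 UMIs gave 569 lower genes over Diff.Spg2, and cells of at most 5% mitochondrial UMIs, 36 in Diff.Spg1, gave 850 and 478. Fewer UMIs enter in both settings. Under that limit the median over Diff.Spg2 was -0.30 for DNA replication, -0.0049 for ribosomal proteins and 0.05 for G2 to M, and scaling by the median of ratios gave 0.22 for ribosomal proteins; the cause was not tested. Medians of X-linked genes ran from -0.03 to 0.08. The share of Diff.Spg1 cells in the library labelled Zfp541-/- was 0.576% at most 5% mitochondrial UMIs, 2.88% at 3000 UMIs or more and 6.79% of cells up to zygotene, and in the WT library 0.0365% and 6.56% under the last 2. Leaving out X-linked genes gave 504 higher and 292 lower over Diff.Spg2. For the 40 genes with the 25 highest and 15 lowest ratios over Diff.Spg2, 359 of 360 values stayed on the same side of 2-fold. Oraov1 had -0.89 after thinning. These genes were picked for extreme ratios in the same counts, so the count does not describe other genes. Depth limits the WT cells and genes of a few UMIs. No paired analysis was possible because each genotype had 1 library and no replicate numbers.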
